A study of Oryza sativa with 6 samples.

Results

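The genes described here encode cytosolic ribosomal proteins of rice roots, and they were chosen by description. Taken was every gene model whose annotation in the deposited table holds the words '40S ribosomal protein' or '60S ribosomal protein', with plastid and mitochondrial ones left out. The rule found 61 genes among the 40745 gene models of the table (42031 features in all), 37 of the small (40S) and 24 of the large (60S) subunit, for 33 different proteins. It is not a full set of the ribosome's proteins, since 14 further genes are described as ribosomal protein L15, L19, L32, L37 or P0, or as a ribosomal protein, in other words and are given separately. The rule reads descriptions and no measured level.

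The libraries are bulk RNA-seq of roots of wild-type rice (Oryza sativa) from a greenhouse. In the Fo+Cd group (3 libraries) roots received 0.5% Fo10 together with 10 µM cadmium (Cd), a toxic metal, and in the Cd group (3 libraries) 10 µM Cd alone. What Fo10 is does not follow from the labels, and all 6 libraries share the Cd treatment, so no value bears on Cd itself. The labels do not say whether the replicates came from separate plants or cultures, so the spread behind each p-value is that of these libraries and could be technical.

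Cytosolic ribosomes translate the mRNAs made in the nucleus: the 40S subunit decodes the mRNA and the 60S subunit forms the peptide bond and holds the tunnel through which the new chain leaves. Each ribosome holds 1 copy of nearly every ribosomal protein, and in plants most of these proteins are encoded by several genes. In roots, ribosomal protein mRNAs are known to be most abundant in the dividing and growing cells near the tip. The roles named below are known mainly from the ribosomes of yeast and mammals.

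Levels are in TPM, a share of all transcripts on a fixed total, which corrects for transcript length and for the total of each library but keeps no record of how many reads lie behind a value, so the depth is unknown. The listed features held between 963281 and 966767 TPM per library. As checks on the tissue, the 6 root markers looked for were all present, with a summed level of 1066, 1509 and 1217 TPM in the 3 Fo+Cd libraries and of 1034, 1135 and 952 TPM in the 3 Cd libraries, while 27 shoot markers summed to between 23.6 and 33.2 TPM in any library and 7 of them were at 0 in all 6. In bulk tissue, fewer cells of a type and less RNA per cell cannot be told apart. One fact about single libraries touches every result below: Fo+Cd replicates 1 and 2 stood apart from the other libraries in these genes, in opposite directions.

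Ribosomal protein genes were among the most abundant transcripts of the roots. The 59 genes that passed the filter (at least 1 TPM in at least 3 libraries) had a median level of 275 TPM over the 6 libraries, against a median of 14.2 TPM over the 21166 features tested, and 97.4% of those features lay below 275 TPM. Of the 59, 55 reached 100 TPM, 12 reached 500 TPM and 47 were among the 1000 most abundant features. The other 2, both described as S7, did not pass. BGIOSGA006573 was listed at 0 in all 6 libraries, and BGIOSGA018246 was at 1.89, 0 and 0 TPM in Fo+Cd replicates 1, 2 and 3 and at 0, 0 and 0.66 TPM in Cd replicates 1, 2 and 3.

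Small-subunit genes spanned the wider range from lowest to highest, 49.4 to 787 TPM against 80.3 to 703 TPM for the 60S genes. Between the lower and upper quartile they spanned less, 201 to 396 TPM against 209 to 482 TPM. The highest 40S gene was S21 (BGIOSGA012605), a small protein of the 40S subunit, at 749 ± 92.4 TPM in Fo+Cd and 825 ± 5.48 TPM in Cd (SD, n = 3 each, as in all such pairs here). S8 (BGIOSGA015295) followed with 909, 667 and 767 TPM in Fo+Cd replicates 1, 2 and 3 and 730, 748 and 750 TPM in Cd replicates 1, 2 and 3. S19 (BGIOSGA012909), a protein of the 40S head needed for maturation of the small-subunit rRNA, had 873, 625 and 765 TPM in Fo+Cd and 791, 743 and 749 TPM in Cd. In all of these the Fo+Cd libraries lay on both sides of the Cd libraries. The 3 least abundant of the tested 40S genes were one gene each for S3a (BGIOSGA036331, 49.4 TPM over the 6 libraries), S4 (BGIOSGA019732, 78.0 TPM) and S24 (BGIOSGA000897, 103 TPM). The median of the 35 tested 40S genes was 267 TPM.

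Large-subunit genes had a median level of 321 TPM over 24 genes. The highest were L36 (BGIOSGA019990) at 703 TPM over the 6 libraries, L29 (BGIOSGA001808) at 700 TPM and L27 (BGIOSGA006688) at 647 TPM. At the low end were L11 (BGIOSGA021063) at 80.3 TPM, L44 (BGIOSGA024375) at 81.5 TPM and L10a (BGIOSGA029187) at 110 TPM. L11 binds the 5S rRNA together with L5, L10a forms the L1 stalk beside the tRNA exit site, and L44 lies close to that site. The single gene for L5 (BGIOSGA004978) stood at 115 TPM, next to L10a.

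**Figure D1:**
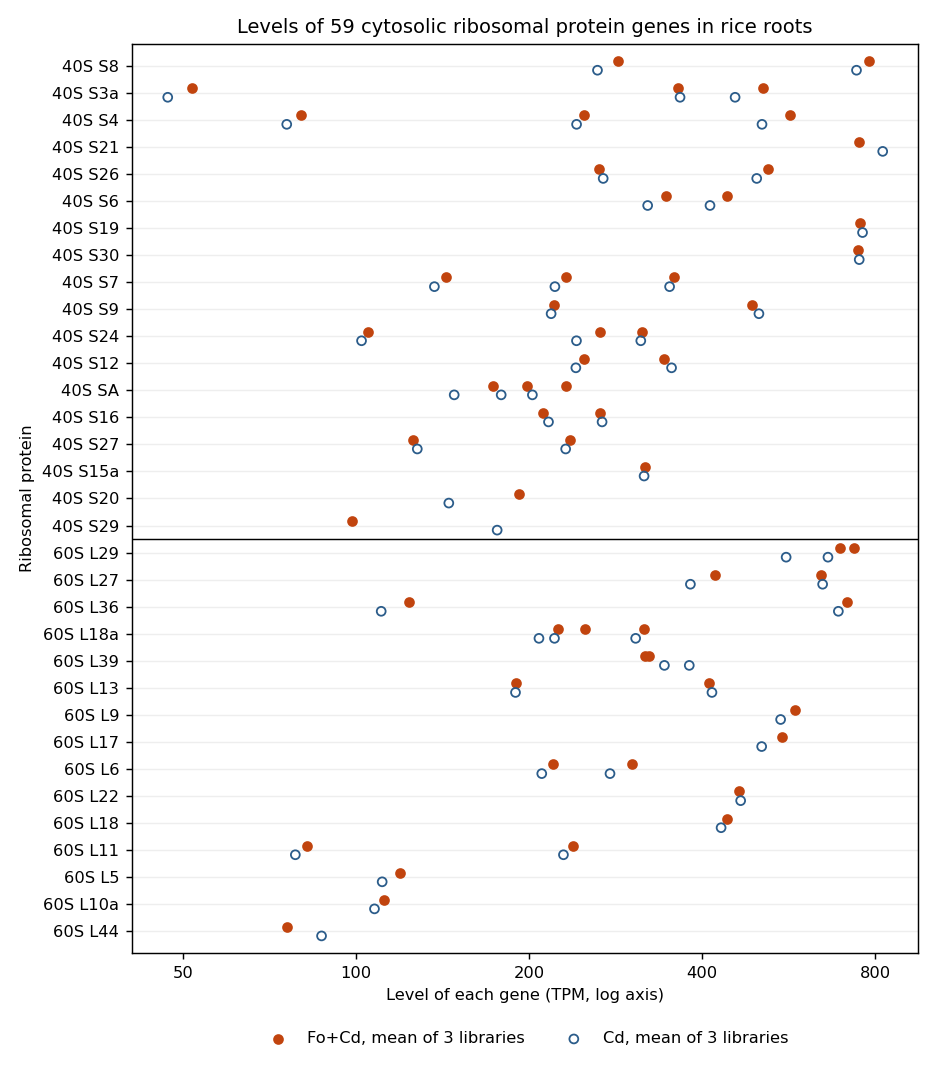
Level of each of the 59 tested genes (TPM, log axis), 1 row per protein, 40S proteins above and 60S proteins below the line, ordered by summed level within a subunit; filled points are the means of the 3 Fo+Cd libraries and open points those of the 3 Cd libraries. The S3a, S4 and L36 rows are spread the widest, and the filled and open points of one gene lie farthest apart for S29 and S20.

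Genes for the same protein could differ several-fold in level. Among the 20 proteins with at least 2 tested genes, the ratio of the most to the least abundant was largest for S3a, S4 and L36. S3a, a protein at the mRNA exit side of the 40S subunit, had a main gene (BGIOSGA012058) at 484 TPM and a minor one at 49.4 TPM, a 9.80-fold difference that lay between 9.24-fold and 10.3-fold in every library. For S4 the main gene (BGIOSGA007295) stood at 539 TPM, 6.91-fold above the minor one, with 6.34-fold to 7.59-fold in single libraries. For L36 the ratio was 6.01, between 5.33 and 6.43 in single libraries, the minor gene (BGIOSGA000511) being at 117 TPM. The order of these paralogs was thus the same in each of the 6 libraries.

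At the other end were L39 and L29, whose 2 genes each had nearly equal means (ratios 1.06 and 1.11) and whose order changed between libraries. In 5 proteins (L39, L29, L11, S9 and S16) the 2 tested genes cite the same protein record, and reads of such near-identical copies could have been shared between them by the authors' counting. Values of these 10 genes one by one are therefore uncertain, and the sum of each pair is given as well. For L11 the sum was 378, 246 and 339 TPM in Fo+Cd replicates 1, 2 and 3 and 301, 315 and 308 TPM in Cd replicates 1, 2 and 3. The S9 pair summed to 818, 575 and 733 TPM in Fo+Cd and 737, 731 and 695 TPM in Cd, and the S16 pair to 570, 397 and 466 TPM in Fo+Cd and 497, 481 and 474 TPM in Cd. In these 3 proteins the Fo+Cd sums lay on both sides of the Cd sums, and the L29 and L39 sums are given with their genes.

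Counted as a whole, the 61 genes took up 2.42, 1.73 and 2.08% of the listed TPM in Fo+Cd replicates 1, 2 and 3, and 2.07, 1.99 and 1.97% in Cd replicates 1, 2 and 3. In TPM, the sums were 23336, 16681 and 20115 in Fo+Cd and 19896, 19248 and 19085 in Cd. The Fo+Cd sums surrounded the Cd sums: replicate 1 was above and replicate 2 below all other libraries. The group means, 20044 ± 3328 TPM in Fo+Cd and 19410 ± 429 TPM in Cd, differed by less than the spread between the Fo+Cd libraries, and the coefficient of variation was 16.6% in Fo+Cd and 2.21% in Cd. The log2 ratio of the group means (Fo+Cd over Cd) was 0.05. It turned negative, -0.08, without Fo+Cd replicate 1, and was 0.16 without Fo+Cd replicate 2.

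Both subunits followed this course. The 40S genes summed to 13498, 9393 and 11566 TPM in Fo+Cd replicates 1, 2 and 3 and to 11444, 11205 and 11055 TPM in Cd replicates 1, 2 and 3. The 60S genes summed to 9838, 7288 and 8548 TPM in Fo+Cd and to 8452, 8043 and 8031 TPM in Cd. The ratio of the 40S to the 60S sum was 1.37, 1.29 and 1.35 in Fo+Cd (1.34 ± 0.0437) and 1.35, 1.39 and 1.38 in Cd (1.37 ± 0.0196), and the groups overlapped. In Fo+Cd its coefficient of variation was 3.26%, against 17.9% for the 40S and 14.9% for the 60S sum; in Cd it was 1.43%, against 1.75% and 2.93%. Taken from the median level of the tested genes in each subunit instead of the sums, the ratio was 0.886 ± 0.0729 in Fo+Cd and 0.829 ± 0.0832 in Cd, the opposite order of the group means.

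The comparison gene by gene asked whether Fo10 under Cd changed any single ribosomal protein mRNA. None of the 59 tested genes passed the test (limma on log2(TPM + 1), Benjamini-Hochberg adjusted p under 0.05 over all 21166 features), which called 518 features, 2.45% of those tested (1.72% higher and 0.723% lower in Fo+Cd). At an unadjusted p under 0.05, 1 of the 59 was counted, higher in Fo+Cd, against 15.4% of all features (7.35% higher and 8.06% lower in Fo+Cd). Groups that did not overlap were likewise seen in 1 of 59 members, the same gene, and in 21.3% of all features (11.3% higher and 10.0% lower in Fo+Cd). The median log2 fold change (Fo+Cd over Cd) was 0.03 for the 40S and 0.04 for the 60S genes, against 0.003 over all features, and 38 of 59 lay above 0, against 50.4% of all features. That count rested on single libraries. Without Fo+Cd replicate 1 it was 8 of 59 with a median of -0.08, against 46.3% of all features. Without Fo+Cd replicate 2 it was 54 of 59 with a median of 0.18, against 52.3% of all features. In that last fit 7 members had an unadjusted p under 0.05 by limma and none an adjusted one. The share of all features at that unadjusted threshold is not given for this fit, so the 7 cannot be read as a result about the members.

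The intervals show what size of change the data leave room for. The 95% interval lay within a 2-fold change in either direction for 58 of the 59 genes and within 1.5-fold for 56. Its half-width had a median of 0.34 on the log2 scale, with a range of 0.24 to 0.91. The genes whose interval reached past 1.5-fold were S20, S29 and one L29 gene, and past 2-fold S29.

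**Figure D2:**
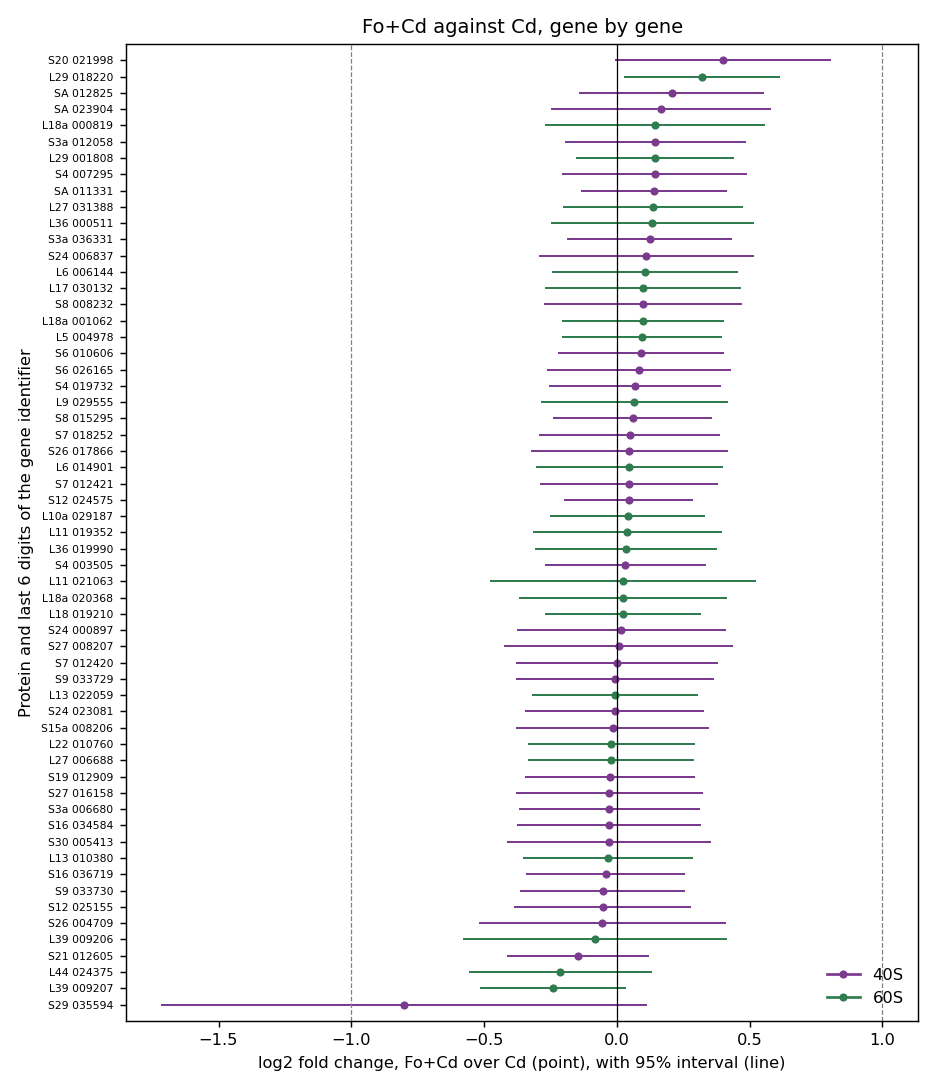
Log2 fold change of Fo+Cd over Cd for each of the 59 tested genes (points; 40S and 60S in different colours) with its 95% interval from limma (lines), ordered by size; dashed lines mark a 2-fold change either way. The points lie between -0.80 (S29) and 0.40 (S20), 58 intervals stay inside the dashed lines and that of S29 does not.

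Among the genes with the most positive values, the 40S head protein S20 (BGIOSGA021998) had 226, 156 and 193 TPM in Fo+Cd replicates 1, 2 and 3 and 155, 162 and 119 TPM in Cd replicates 1, 2 and 3. Its groups overlapped, Cd replicate 3 being the lowest library, and its log2 fold change was 0.40 (SE 0.17, limma adjusted p 0.329). It was 0.27 without Fo+Cd replicate 1, 0.54 without Fo+Cd replicate 2 and 0.26 without Cd replicate 3. The L29 gene BGIOSGA018220 was the one without overlap: 690, 715 and 680 TPM in Fo+Cd and 654, 488 and 539 TPM in Cd, means of 695 ± 17.9 and 560 ± 85.0 TPM, with a log2 fold change of 0.32 (SE 0.12, unadjusted p 0.0341, limma adjusted p 0.274). With single libraries left out the log2 fold change lay between 0.23 and 0.44. It shares its protein record with BGIOSGA001808, which was at 852, 640 and 718 TPM in Fo+Cd and 685, 683 and 621 TPM in Cd. Summed, the L29 genes stood at 1542, 1354 and 1398 TPM in Fo+Cd and 1339, 1171 and 1159 TPM in Cd, the only one of the 33 protein sums whose groups did not overlap.

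SA, the 40S protein related to the laminin receptor of animals, was measured by 3 genes. BGIOSGA012825 had 206, 139 and 173 TPM in Fo+Cd and 139, 153 and 152 TPM in Cd (log2 fold change 0.21), and BGIOSGA023904 had 296, 180 and 220 TPM in Fo+Cd and 207, 192 and 209 TPM in Cd (0.17). For BGIOSGA011331, the third, the log2 fold change was 0.14. In each of the 3, Fo+Cd replicate 1 was the highest library, the groups overlapped, and the adjusted p was 0.552 or more by limma. The sum of the 3 was 725, 490 and 595 TPM in Fo+Cd and 517, 530 and 542 TPM in Cd. The 60S gene L18a (BGIOSGA000819) had 310, 188 and 251 TPM in Fo+Cd and 229, 218 and 217 TPM in Cd (log2 fold change 0.14).

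At the negative end stood S29 (BGIOSGA035594), a small zinc-binding protein of the 40S head, with 81.7, 74.9 and 138 TPM in Fo+Cd replicates 1, 2 and 3 and 230, 199 and 99.2 TPM in Cd replicates 1, 2 and 3. Its groups overlapped through Cd replicate 3, which lay below Fo+Cd replicate 3. The means were 98.2 ± 34.7 TPM in Fo+Cd and 176 ± 68.3 TPM in Cd, and the log2 fold change was -0.80 (SE 0.38, interval -1.71 to 0.11, limma adjusted p 0.382). It was -0.70 without Fo+Cd replicate 1, -0.63 without Fo+Cd replicate 2 and -1.17 without Cd replicate 3. Among the 59 tested genes it was also the most variable, with a within-group SD of 0.56 on the log2 scale.

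L39, a short protein that lines the exit tunnel of the 60S subunit, was measured by a pair of genes with the same protein record. BGIOSGA009207 had 301, 294 and 375 TPM in Fo+Cd and 366, 391 and 383 TPM in Cd (log2 fold change -0.24, limma adjusted p 0.381), and BGIOSGA009206 had 330, 348 and 275 TPM in Fo+Cd and 457, 314 and 261 TPM in Cd (-0.08). Their sum was steady in Fo+Cd, at 632, 641 and 650 TPM, and varied in Cd, at 823, 705 and 644 TPM, so that the groups overlapped by Cd replicate 3 alone. L44 had 83.3, 59.3 and 85.2 TPM in Fo+Cd and 84.9, 85.8 and 90.4 TPM in Cd (log2 fold change -0.21), and S21 had a log2 fold change of -0.15. Neither passed the test.

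S6, the 40S protein phosphorylated in response to TOR kinase signalling in yeast, mammals and plants, was measured by a pair of genes. BGIOSGA026165 had 534, 361 and 434 TPM in Fo+Cd and 402, 412 and 425 TPM in Cd. BGIOSGA010606 had 397, 286 and 354 TPM in Fo+Cd and 317, 337 and 311 TPM in Cd. For both, Fo+Cd replicates 1 and 3 were above and replicate 2 below every Cd library, and the log2 fold changes were 0.08 and 0.09.

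The clearest pattern described here lay between single libraries within the Fo+Cd group. Of the 59 tested genes, 53 were highest in Fo+Cd replicate 1 and 53 were lowest in Fo+Cd replicate 2, against 27.8% and 20.8% of all features tested. Both held for 49 genes (83.1%), against 9.20% of all features and 13.3% of the 3818 features with a mean of at least 50 TPM and a value above 0 in every library. The order replicate 1, then 3, then 2 within Fo+Cd held for 53 of 59 genes (89.8%), against 26.0% of all features and 29.9% of those of at least 50 TPM. Among the protein sums, 29 of 33 were highest in Fo+Cd replicate 1 and 30 of 33 lowest in Fo+Cd replicate 2. These counts describe genes that move together in 6 libraries, not independent observations.

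The size of the shift was similar from gene to gene. The median deviation from a gene's own mean over the 6 libraries was 0.27, -0.25 and 0.04 on the log2 scale in Fo+Cd replicates 1, 2 and 3, and lay between -0.03 and -0.001 in the Cd libraries, whereas over all features it was 0.04 in Fo+Cd replicate 1 and -0.008 in replicate 2. As a ratio, Fo+Cd replicate 1 over replicate 2 had a median of 1.44 over the members, with a range of 0.950 to 1.86, against 0.986 over the features of at least 50 TPM. In that last median, features higher and features lower in replicate 1 offset each other. The highest over the lowest Fo+Cd library gave a median of 1.44 over the members and 1.21 over the features of at least 50 TPM. The highest over the lowest Cd library gave a median of 1.08 over the members and 1.14 over those features. The SD among the Fo+Cd libraries was larger than that among the Cd libraries in 56 of 59 members. The same held for 57.7% of all features and 62.2% of those of at least 50 TPM. The median SD of the members was 0.27 in Fo+Cd and 0.06 in Cd on the log2 scale. Over all features it was 0.17 and 0.14, and over those of at least 50 TPM 0.14 and 0.10.

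**Figure D3:**
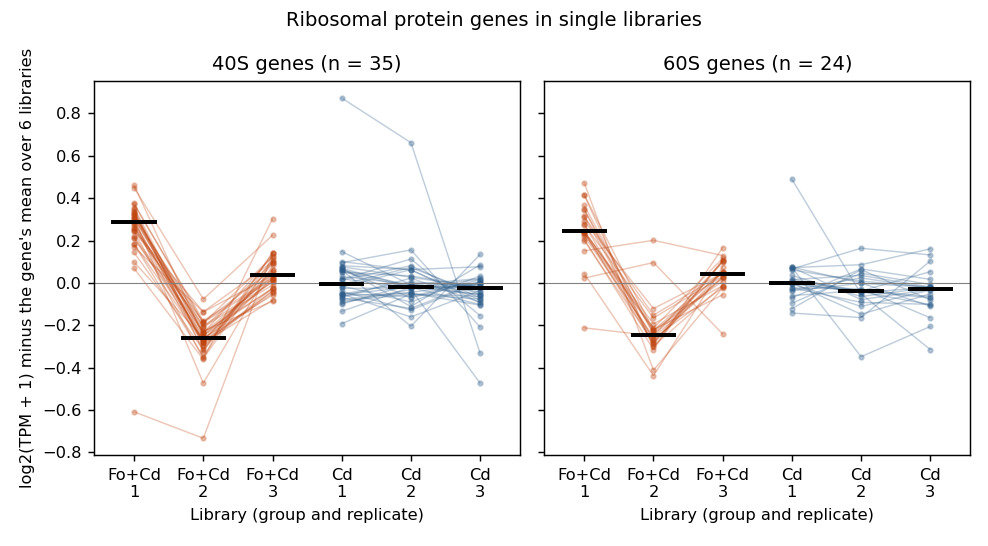
Each tested gene's log2(TPM + 1) in the 6 libraries, minus its own mean over them, for the 35 tested 40S genes (left) and the 24 tested 60S genes (right); thin lines join the 3 libraries of one group for 1 gene and black bars are medians over genes. The medians lie near 0.27 in Fo+Cd replicate 1 and near -0.25 in Fo+Cd replicate 2 for both subunits together and close to 0 in the Cd libraries, and the lone 40S line far below the rest in Fo+Cd replicates 1 and 2 is S29.

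Once this shared shift is taken off, by subtracting the members' median deviation in each library, little spread is left in most genes. The median within-group SD over the members was 0.20 before and 0.06 after the subtraction (log2 scale), and 47 of the 59 genes had a remaining SD under 0.1. In 5 genes it was at least 0.2: S29 (0.57), the L39 gene BGIOSGA009206 (0.38), the L29 gene BGIOSGA018220 (0.25), the other L39 gene (0.22) and the S27 gene BGIOSGA008207 (0.22). S20 behaved differently from these, since it stood 0.18, 0.17 and 0.19 above the shared shift in Fo+Cd replicates 1, 2 and 3 and had remainders of -0.09, -0.01 and -0.45 in Cd replicates 1, 2 and 3. These remainders describe the genes relative to each other and carry no test. The shift was taken from the same genes, so part of the fall in SD is built in. No value from other features stands beside it.

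The 6 genes that did not follow the order replicate 1, 3, 2 were these 5 genes and L44. The S27 gene BGIOSGA008207, a zinc-binding protein of the 40S subunit, had 242, 180 and 285 TPM in Fo+Cd and 241, 200 and 254 TPM in Cd. Its paralog BGIOSGA016158 kept the order with 147, 107 and 123 TPM in Fo+Cd and had 134, 140 and 109 TPM in Cd. The widest Fo+Cd range among the tested genes was that of the minor L11 gene BGIOSGA021063, one of the genes that share a protein record, with 110, 59.1 and 77.7 TPM in Fo+Cd and 83.1, 74.7 and 77.2 TPM in Cd, a 1.86-fold difference between Fo+Cd replicates 1 and 2.

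Other genes of protein synthesis showed the same library order to different degrees, and none of the lists below held a gene that passed the test. The 14 ribosomal protein genes outside the members are described without a subunit or, for P0 of the 60S stalk, as a 60S acidic ribosomal protein. They stood at 3638, 2597 and 3176 TPM in Fo+Cd and 3059, 2991 and 3121 TPM in Cd. Of their 13 tested genes, 10 were highest in Fo+Cd replicate 1 (median log2 fold change 0.05). P0 was at 229, 157 and 196 TPM in Fo+Cd and 166, 166 and 159 TPM in Cd for BGIOSGA034553, and at 123, 85.3 and 113 TPM in Fo+Cd and 85.3, 93.4 and 87.0 TPM in Cd for BGIOSGA036674. The 3 genes for elongation factor 1-alpha, which brings aminoacyl-tRNA to the ribosome, summed to 2993, 2210 and 2649 TPM in Fo+Cd and 2237, 2514 and 2366 TPM in Cd.

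Among the initiation factors, 14 of the 15 tested genes for subunits of eIF3, the complex that holds the 40S subunit during initiation, were highest in Fo+Cd replicate 1, and 7 were lowest in Fo+Cd replicate 2. All 15 had log2 fold changes above 0 (median 0.14), against 50.4% of all features, and 2 had an unadjusted p under 0.05, against 15.4% of all features. Without Fo+Cd replicate 1, 10 of the 15 lay above 0, against 46.3% of all features, and the median was 0.02. Over all 22 tested initiation factor genes the median was 0.13, and 0.02 without that library. Ribosome biogenesis genes (10 tested) had a median log2 fold change of 0.16, with 7 highest in Fo+Cd replicate 1 and 2 lowest in replicate 2, against 20.8% of all features for the second count. Their sum was 471, 305 and 342 TPM in Fo+Cd and 343, 355 and 395 TPM in Cd. Fo+Cd replicate 2, and replicate 3 only just, lay below every Cd library. A single gene, BGIOSGA006031, weighed heavily in this sum, with 156, 46.9 and 55.6 TPM in Fo+Cd and 93.0, 79.0 and 125 TPM in Cd. Gene by gene, 7 of the 10 had log2 fold changes above 0, against 50.4% of all features. Without Fo+Cd replicate 1 the median log2 fold change was 0.06, with 7 of 10 above 0, against 46.3% of all features. The 12 tRNA ligase genes had a median log2 fold change of 0.12 (0.06 without Fo+Cd replicate 1), with 8 highest in Fo+Cd replicate 1 and 1 lowest in replicate 2. Most of these 12 genes are described as chloroplastic or mitochondrial, so they are not a cytosolic set. Their sum was 257, 228 and 233 TPM in Fo+Cd and 195, 211 and 207 TPM in Cd, higher in every Fo+Cd library. BGIOSGA032620 (means of 82.0 TPM in Fo+Cd and 67.2 TPM in Cd) and BGIOSGA010345 (61.7 and 51.6 TPM) made up most of this sum. Gene by gene 4 of the 12 had groups that did not overlap, against 21.3% of all features.

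Among ribosomal proteins of the organelles the order was seen in few genes. Of 28 genes of the plastid or bacterial type, 17 were tested. Of these, 2 were highest in Fo+Cd replicate 1, 4 lowest in replicate 2 and 1 both, against 27.8%, 20.8% and 9.20% of all features. The order replicate 1, 3, 2 held for 3 of the 17, against 26.0% of all features. Most of the 17 lay at low levels, and their median within-group SD was 0.31 on the log2 scale, against 0.20 for the members. Their library order is therefore uncertain. Their median log2 fold change was -0.19, and their sum was 140, 115 and 142 TPM in Fo+Cd and 145, 142 and 123 TPM in Cd. The 2 mitochondrial genes were both highest in Fo+Cd replicate 1 and neither was lowest in replicate 2; they summed to 90.3, 72.4 and 67.9 TPM in Fo+Cd and 64.9, 69.5 and 64.4 TPM in Cd.

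**Figure D4:**
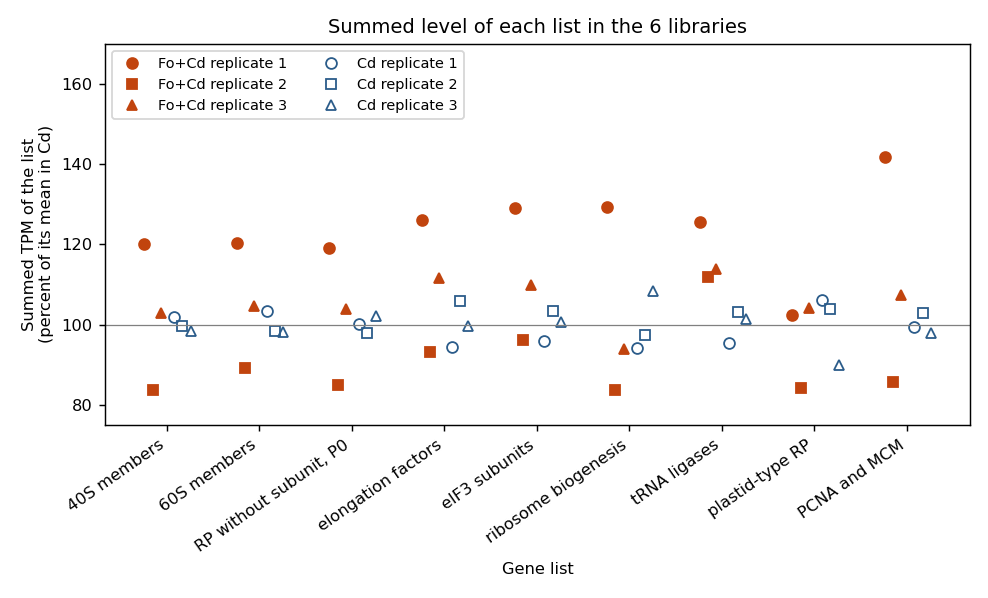
Summed TPM of 9 gene lists in each library as a percent of the list's mean over the 3 Cd libraries; filled symbols are Fo+Cd replicates 1 to 3, open symbols Cd replicates 1 to 3, and RP stands for ribosomal protein. The 40S and 60S sums of Fo+Cd replicate 1 lie at 120% of the Cd mean and those of Fo+Cd replicate 2 at 83.6% and 89.2%, and replicate 1 is the highest library for each list shown except the plastid-type ribosomal proteins.

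As a list, genes of dividing cells, which root tips hold, followed the library differences of the ribosomal protein genes only in part. The list was matched by words and took in histones of any type, H3.3 included. Whether each of them marks dividing cells was not tested. PCNA, the sliding clamp of DNA replication, and 5 subunits of the MCM helicase summed to 236, 142 and 178 TPM in Fo+Cd replicates 1, 2 and 3 and to 165, 171 and 163 TPM in Cd replicates 1, 2 and 3. All 6 were highest in Fo+Cd replicate 1 and 4 were lowest in Fo+Cd replicate 2. All 6 also kept the order replicate 1, 3, 2 within Fo+Cd, against 26.0% of all features. The whole list of 55 dividing-cell genes, most of them histones, summed to 14407, 12062 and 12283 TPM in Fo+Cd and 13342, 13449 and 13528 TPM in Cd. Here Fo+Cd replicate 3 lay below every Cd library, whereas the ribosomal protein sum lay above them. Of the list's 49 tested genes, 31 were highest in Fo+Cd replicate 1, against 27.8% of all features. Both extremes held for 21 (42.9%, against 83.1% of the members and 9.20% of all features). Some abundant histone genes were highest in Fo+Cd replicate 2 instead, such as H4 (BGIOSGA029303) with 1116, 1273 and 1117 TPM in Fo+Cd and 1190, 1200 and 1193 TPM in Cd. Among the 55, 6 were at 0 in every library. The sum of the root markers was highest in Fo+Cd replicate 2, the other way round. Most of it came from the silicon efflux transporter gene BGIOSGA011605, with 730, 1120 and 862 TPM in Fo+Cd replicates 1, 2 and 3. The Casparian strip genes among the root markers were each highest in a Cd library. The part of dividing cells or root cell types in the library differences of the ribosomal protein genes was not tested.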

How the data were processed

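Roots of 6 samples (3 Fo+Cd, 3 Cd) were measured by poly(A)-selected, stranded RNA-seq, per the labels' protocols. The authors deposited 1 table of TPM values; the unit was read from the values, and no aligner, counting program or build is named (not given in the sources used here). The 2 columns of group means were not used. Columns were matched to samples by name.

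Members and comparison lists were matched by words in the deposited descriptions. Members and lists were chosen with earlier results of these data known. Values were taken as log2(TPM + 1), so fold changes of low genes are understated. The Fo+Cd and Cd groups were compared in the 21166 features that reached 1 TPM in 3 or more libraries. The tool was limma 3.58.1 (R 4.3.3), with a mean-variance trend, robust moderation and no covariates; p-values were adjusted by Benjamini-Hochberg with a threshold of 0.05, and 95% intervals come from the same fit. The test was checked on simulated data. Deviations, sums and orders of libraries were computed in Python 3.11.15 (pandas 2.3.3, numpy 2.4.6) and have no test. The genes named are the 3 highest and 3 lowest in each subunit, the 5 most positive and 5 most negative fold changes, the 3 most variable, S6 and SA, and the main and minor genes of the 3 proteins with the largest paralog ratio. Both S27 genes, L5, and the single ribosome biogenesis, tRNA ligase, histone and root marker genes were named after their values were seen. Alternatives were other pseudocounts, filters, scalings and model settings, a replicate block, and leaving out each library.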

Additional observations from a re-analysis of the deposited data

How the results depend on the processing

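No ribosomal protein gene was called under any of the alternatives run, and the direction of the members' median changed only when Fo+Cd replicate 1 was left out. The number of features called, 518, was 353 with a replicate block, 392 without a filter and between 460 and 521 under the other settings with all 6 libraries; leaving out single libraries gave 189 to 726 (269, 253 and 189 without Fo+Cd replicates 1, 2 and 3, and 310, 726 and 240 without Cd replicates 1, 2 and 3). The labels do not say whether the replicate numbers pair the samples. Deviations of same-numbered libraries correlated at -0.03, 0.08 and 0.07, which shows little shared difference but cannot settle the pairing. The counts of members highest in Fo+Cd replicate 1 and lowest in replicate 2 (53 and 53), recomputed under settings chosen after seeing the data, were 49 and 52 with median-of-ratios scaling and 51 and 52 with quantile normalization.

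The log2 ratio between groups of the 40S to 60S ratio was -0.039 from sums and 0.0994 from each subunit's median log2(TPM + 1). The spread of the median deviation among the Cd libraries was 0.013, against 0.0209 with median-of-ratios scaling and 0.0218 with quantile normalization. Leaving out 1 library changed the sign of the log2 fold change in 47 of the 59 tested members. Among the 26 genes named by rule 16 did so, with values from -0.041 to 0.28 (L36, BGIOSGA000511), -0.027 to 0.33 (L18a, BGIOSGA000819), -0.15 to 0.17 (S24, BGIOSGA000897), -0.014 to 0.22 (S6, BGIOSGA010606), -0.0050 to 0.27 (S3a, BGIOSGA012058), -0.055 to 0.17 (S8, BGIOSGA015295), -0.075 to 0.19 (S4, BGIOSGA019732), -0.078 to 0.19 (L36, BGIOSGA019990), -0.21 to 0.24 (L11, BGIOSGA021063), -0.022 to 0.33 (SA, BGIOSGA023904), -0.061 to 0.22 (S6, BGIOSGA026165), -0.066 to 0.16 (L10a, BGIOSGA029187), -0.00034 to 0.25 (S3a, BGIOSGA036331), -0.15 to 0.083 (L27, BGIOSGA006688), -0.14 to 0.10 (S19, BGIOSGA012909) and -0.26 to 0.14 (L39, BGIOSGA009206); none of these genes was called in any setting, and the cause was not tested. With 3 libraries a group and no record of depth, changes of the size the intervals allow could go uncalled. The intervals are not detection limits of the adjusted test. The interval of the L29 gene BGIOSGA018220, 0.03 to 0.61, left out 0, and the gene was not called (limma adjusted p 0.274).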
